A study of Macaca fascicularis with 64 samples.

Results

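The α-cells described here were compared within each monkey according to their transcripts of 2 endoplasmic reticulum (ER) chaperones, HSPA5 (BiP, an ATPase that holds unfolded chains in the ER lumen) and HSP90B1 (GRP94, the ER member of the Hsp90 family). An α-cell was taken as a cell with over 800 macaque genes and over 10000 unique molecular identifiers (UMIs, which count captured mRNA molecules), in which glucagon (GCG) was the highest of the 4 hormones GCG, INS, SST and PPY. GCG also had to reach 20000 CPM (UMIs of a gene scaled to a total of 1000000 per cell) and 2 times the second hormone. The total was that of the macaque genes, without spike-ins. The cells of each monkey were ranked by the summed CPM of HSPA5 and HSP90B1 and split into 3 parts, so the groups were chosen by measured values of these 2 genes and neither gene was tested between them. Of 6141 cells in the files, 5908 passed the gene and UMI minimums and 4401 were α-cells. The upper part held 1462 cells (high α-cells), the lower part 1462 (low α-cells) and the middle 1477, with 55 to 119 high α-cells in each monkey.

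The cells came from islets of 16 cynomolgus monkeys (Macaca fascicularis) with no history of clinical disorder. There were 8 young monkeys aged 4 to 6 years and 8 old ones aged 18 to 21 years, with 4 females and 4 males of each age, named YF1 to YF4, YM1 to YM4, OF1 to OF4 and OM1 to OM4. Islets were picked by hand from collagenase-digested tissue of the pancreas tail, dissociated to single cells and sequenced with a modified STRT-seq protocol in 4 libraries for each monkey, 64 in all. The labels name no treatment, and each monkey was collected on its own day, so day and monkey cannot be told apart. All comparisons between high and low α-cells were made inside a monkey and carried over 16 monkeys.

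The α-cell packages glucagon and releases it when glucose is low. Its hormone precursor is made at the ER, where signal peptidase trims it. In the ER in general, chaperones and protein disulfide isomerases fold proteins, and N-glycosylation and the calnexin cycle handle glycosylated chains. The unfolded protein response (UPR) senses unfolded chains through ATF6, IRE1 (ERN1) and PERK (EIF2AK3) and raises transcripts of ER chaperones, of the folding enzymes and of ER-associated degradation (ERAD). Folded cargo leaves for the Golgi and enters granules, where convertases such as PCSK2 cut it beside granins such as CHGB and SCG2.

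The values that chose the members ran as a gradient with no gap between the parts. The summed level of HSPA5 and HSP90B1 had a median over low α-cells of 279 CPM in the lowest monkey (YM3), 629.8 CPM in the median monkey and 1138 CPM in the highest (OM2). Over high α-cells the medians ran from 995.5 CPM (OF3) through 1921 CPM to 2837 CPM (OF2). In the median monkey the last low cell stood at 888 CPM beside 891 CPM for the first middle cell, and the last middle cell stood at 1550 CPM beside 1564 CPM for the first high cell. Because the levels of the monkeys differed, a high α-cell of OF3 could hold fewer of these transcripts than a low α-cell of OM2. HSPA5 alone averaged 198 CPM in the low and 663 CPM in the high α-cells of the median monkey, and HSP90B1 averaged 402 and 1322 CPM. A UMI of HSPA5 was found in 4277 of the 4401 α-cells (97.2%) and one of HSP90B1 in 4375 (99.4%), with medians of 21 and 47 UMIs per cell.

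**Figure D1:**
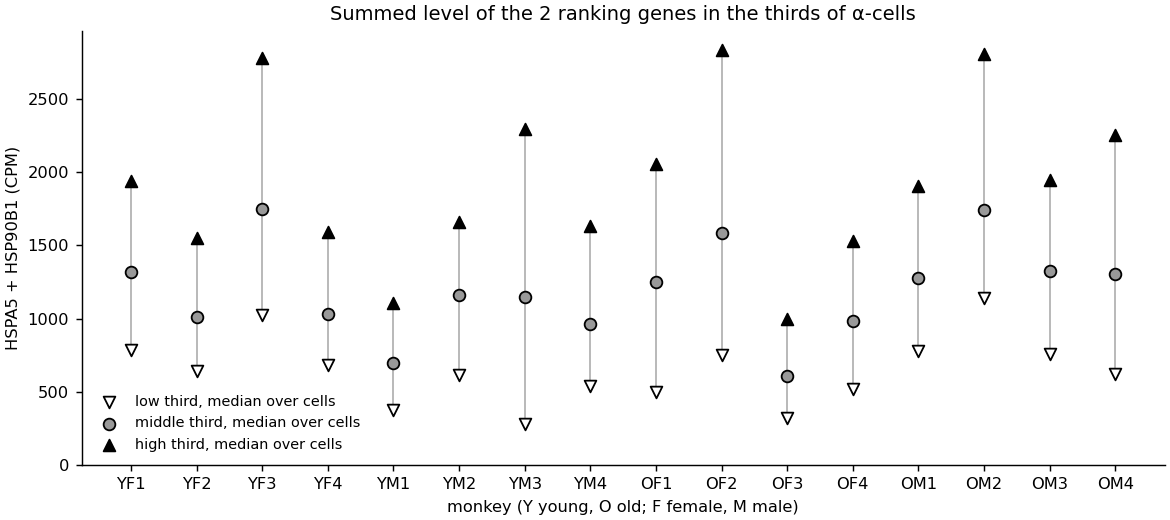
Median summed level of HSPA5 and HSP90B1 (CPM) over the low, middle and high α-cells of each of the 16 monkeys, the values by which the cells were chosen. The high medians run from 995.5 to 2837 CPM and the low medians from 279 to 1138 CPM, so the ranges of different monkeys overlap.

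The 2 ranking genes moved together only loosely from cell to cell. Within a monkey, Spearman's rho between the CPM of HSPA5 and of HSP90B1 over α-cells ran from 0.031 to 0.35 with a median of 0.19, a description over cells that share a library and depth. Each gene could be tested when the other alone ranked the cells. With cells ranked by HSP90B1, HSPA5 lay between 199 and 1339 CPM (median 501) in the upper part and between 152 and 862 CPM (median 347) in the lower part. HSPA5 was higher in 16 of 16 monkeys, by a log2 ratio of 0.45 ± 0.04 (SE), with an edgeR adjusted p of 5.96e-07. With cells ranked by HSPA5, HSP90B1 lay between 576 and 1450 CPM (median 994) in the upper part and between 474 and 1196 CPM (median 773) in the lower part. It was higher in 14 of 16 monkeys by a log2 ratio of 0.24 ± 0.05, and the adjusted p of 0.101 did not pass the threshold of 0.05. Of all genes tested, 9 of 11164 passed with cells ranked by HSPA5. With cells ranked by HSP90B1, 12 of 11109 passed, HSPA5 among them, and 3 genes passed under both rankings.

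High α-cells carried more UMIs per cell. The median over cells was 47424 to 92564 UMIs of macaque genes in the high α-cells (median monkey 72324) and 28280 to 81567 in the low α-cells (median monkey 55375). High α-cells had more UMIs in 16 of 16 monkeys, by 13539 ± 5608 (SD of the differences), with an exact sign-flip permutation p of 3.05e-05, the smallest that 16 monkeys allow, and 9.16e-05 after adjustment over 3 values. Genes per cell were higher by 302.1 ± 214.3 in 14 of 16 monkeys (exact sign-flip adjusted p = 0.000229). The spike-in share of all UMIs, which falls when a cell gives more RNA, had medians of 3.86% to 6.79% in high and 4.04% to 6.14% in low α-cells and was higher in 8 monkeys and lower in 8 (exact sign-flip adjusted p = 0.513). By means in place of medians that share was lower in high α-cells by 0.929 percentage points, in 14 of 16 monkeys (exact sign-flip p = 0.000305). The share of UMIs from mitochondrially encoded genes had a median monkey of 3.30% in high and 3.27% in low α-cells. Cells were therefore also ranked within 5 classes of UMIs per cell, in which the UMI difference dropped to 1352 ± 3366 (exact sign-flip p = 0.128). Below, that ranking is given as within depth classes.

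**Figure D2:**
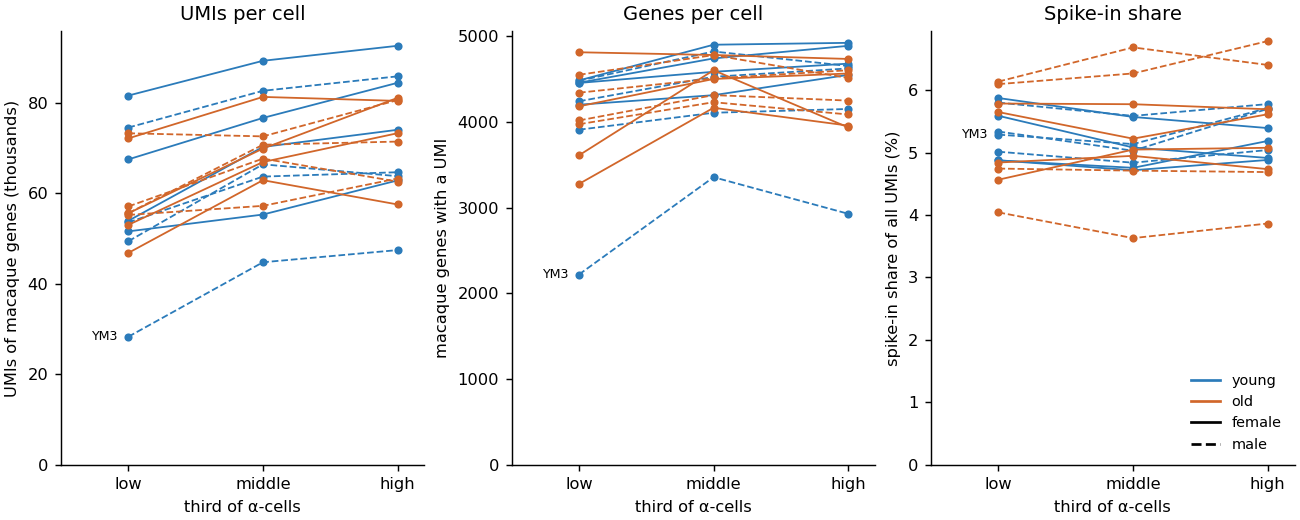
Medians over the low, middle and high α-cells of each monkey for UMIs of macaque genes per cell, macaque genes per cell and the spike-in share of all UMIs in percent, with 1 line for each monkey (young in blue, old in orange, females solid, males dashed). UMIs per cell were higher in high than in low α-cells in 16 of 16 monkeys, and YM3 was the shallowest at 28280 and 47424 UMIs.

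Few genes passed the test between high and low α-cells, and those that rose included ER folding and granule genes. Counts were summed over the cells of each part and monkey, and 11144 of 21039 genes had enough counts to be tested with edgeR, with monkey as a block. In high α-cells 15 genes rose, which is 0.135% of those tested, and 10 fell, which is 0.0897%. Their log2 ratios lay between 0.10 and 0.80 in size, against a median of 0.0037 over all genes tested. In 24 of these 25 genes at least 14 of 16 monkeys moved the same way; over all genes tested, 0.646% were higher and 0.619% were lower in that many monkeys. In 23 of the 25 the middle part had a median between the medians of the high and low α-cells, a place that 36.8% of all genes tested had. Of the 11144 genes tested, 445 above and 356 below 0 had an unadjusted edgeR p under 0.05. The counts given below for lists at that p are to be read beside these. DESeq2 on the same sums called 49 genes higher (0.44%) and 28 lower, and all 25 genes were among them. Scaling by library totals in place of TMM factors moved the median of all genes to 0.048 and the calls to 67 higher and 4 lower. Where only cells with GCG at 10 times the second hormone were kept, 0 genes were called higher and 2 lower by edgeR, with 988 cells in each part, as few as 6 in a monkey and 336 genes at an unadjusted p under 0.05; the 25 genes kept their direction there, 20 of them at an unadjusted p under 0.05.

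Among ER chaperones and cochaperones, 32 of the 34 other members of the list were tested and 4 rose, SDF2L1, CALR, CANX and FKBP2; 0 fell. The list's median log2 ratio was 0.25 and 27 of its 32 members were above 0 (84.4%), against 50.8% of all genes tested. The median over members was above 0 in 15 of 16 monkeys, from -0.0052 to 0.45. DESeq2 called 8 members higher and 0 lower.

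SDF2L1, a cofactor of the BiP chaperone cycle, lay between 34.4 and 179 TMM-scaled CPM in high α-cells (median 82.6) and between 28.4 and 132 CPM in low α-cells (median 54.5). The ranges of the monkeys overlapped, but within monkeys SDF2L1 was higher in 16 of 16, by a log2 ratio of 0.60 ± 0.10 (SE; 1.51-fold, adjusted p = 0.00140). CALR, calreticulin, a calcium-binding lectin chaperone of the calnexin cycle, ranged from 251 to 894.7 CPM in high α-cells (median 410.5) and from 203 to 598 CPM in low α-cells (median 334.5). Its log2 ratio was 0.36 ± 0.05 with 16 of 16 monkeys higher (adjusted p = 0.000577). CANX, calnexin, the membrane-bound partner of CALR, ranged from 281 to 587.5 CPM in high (median 364) and from 198 to 469 CPM in low α-cells (median 300.5). CANX rose by a log2 ratio of 0.26 ± 0.05 in 15 of 16 monkeys (adjusted p = 0.0151). FKBP2, a proline isomerase of the ER lumen, was the fourth call of the list, at medians of 747 and 624 CPM and a log2 ratio of 0.23 ± 0.04 in 13 of 16 monkeys (adjusted p = 0.0135). All 4 also passed in cells ranked within depth classes, with adjusted p between 0.000508 and 0.0105. With every cell thinned to 10000 UMIs, SDF2L1 (log2 ratio 0.50, adjusted p = 0.0928) and CANX (0.25, 0.112) did not pass. With cells ranked by HSPA5 alone CALR passed (0.29, adjusted p = 0.0210), and SDF2L1 (0.61, 0.306), FKBP2 (0.15, 0.280) and CANX (0.12, 0.708) did not. With cells ranked by HSP90B1 alone CALR (0.29, adjusted p = 0.0225) and FKBP2 (0.21, 0.0264) passed, and SDF2L1 (0.40, 0.0905) and CANX (0.22, 0.138) did not. CANX also missed the threshold without YF1 (adjusted p = 0.0529) and without OM1 (0.0528).

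Several well-known chaperones stood above 0 without passing the test. HYOU1, a large Hsp70-like nucleotide exchange factor for BiP, had medians of 71.4 and 49.8 CPM in high and low α-cells and a log2 ratio of 0.40 ± 0.09 in 14 of 16 monkeys (adjusted p = 0.0742). MANF, a secreted BiP-binding protein, had medians of 111 and 69.7 CPM and a log2 ratio of 0.50 ± 0.15 (adjusted p = 0.208). DNAJB11, an Hsp40 cochaperone of BiP, stood at 84.0 and 61.0 CPM with a log2 ratio of 0.38 ± 0.11 (adjusted p = 0.208), and DNAJB9, another, at 22.1 and 18.4 CPM with 0.29 ± 0.16 (adjusted p = 0.776). CRELD2 was the lowest of these by level, at medians of 8.12 and 4.42 CPM, and its log2 ratio of 0.82 ± 0.35 had an adjusted p of 0.624. HYOU1 passed with DESeq2 at an adjusted p of 0.00814 and, by edgeR, within depth classes at 0.0491.

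Of the ER oxidoreductases, which form and shuffle disulfide bonds, 22 of 26 were tested, 1 rose and 0 fell. The list's median log2 ratio was 0.12 with 17 members above 0. PDIA3 (ERp57), the isomerase that works with calnexin and calreticulin, had the lowest adjusted p of all genes that rose. It lay between 236.5 and 548 CPM in high α-cells (median 408) and between 171.5 and 412 CPM in low α-cells (median 295). PDIA3 was higher in 16 of 16 monkeys by a log2 ratio of 0.39 ± 0.04, a 1.31-fold difference (adjusted p = 3.36e-06), and passed in each of 16 fits that left out 1 monkey. It passed within depth classes too (0.35, adjusted p = 7.81e-05) and did not when cells were ranked by HSPA5 alone (0.26, 0.0633). Ranked by HSP90B1 alone, PDIA3 passed (0.33, adjusted p = 0.000156). PDIA4 had medians of 41.6 and 29.2 CPM and a log2 ratio of 0.55 ± 0.13 in 14 of 16 monkeys (adjusted p = 0.0704; DESeq2 0.00606). PDIA6 had a log2 ratio of 0.46 ± 0.13 (adjusted p = 0.208) and P4HB, the main disulfide isomerase, one of 0.16 ± 0.05 (adjusted p = 0.333).

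Of the UPR sensors and transcription factors, 0 of 15 passed with edgeR and 0 with DESeq2, and 0 had an unadjusted p under 0.05. The list's median log2 ratio was 0.14 with 11 of 15 members above 0. The median over members was above 0 in 12 of 16 monkeys, from -0.10 to 0.60. ATF6, the sensor that is cleaved in the Golgi, had medians of 26.8 and 25.4 CPM in high and low α-cells and a log2 ratio of 0.14 ± 0.18 (adjusted p = 0.946). ERN1, the IRE1 sensor that splices XBP1, stood at 10.1 and 9.57 CPM with a log2 ratio of 0.09 ± 0.25 (adjusted p = 0.980). EIF2AK3, the PERK kinase, stood at 8.36 and 12.3 CPM with a log2 ratio of -0.40 ± 0.23 (adjusted p = 0.776). These are low levels with wide errors, and a difference of the size seen for CALR lay within 2 SE of the values of ATF6 and ERN1. XBP1 was not analysed here. ATF4, the transcription factor whose translation PERK raises, was well measured at medians of 162 and 164 CPM and had a log2 ratio of -0.05 ± 0.07 (adjusted p = 0.956). DDIT3 (CHOP), a pro-apoptotic target of ATF4, stood at 57.5 and 43.5 CPM with a log2 ratio of 0.21 ± 0.15 (adjusted p = 0.848). Of 26 tested genes of the ATF4 and integrated stress response, 0 rose and 0 fell by edgeR or DESeq2, 1 above 0 and 1 below 0 had an unadjusted p under 0.05, and the median log2 ratio was 0.0073.

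Lists for the steps before and after folding had medians slightly above 0, and 0 of their genes passed with edgeR. All 23 tested members of the translocon and signal peptidase list, which brings chains into the ER, had log2 ratios above 0, with a median of 0.11. By edgeR and by DESeq2 0 of them were called, and 7 had an unadjusted p under 0.05. N-glycosylation had a median of 0.10 with 26 of 34 members above 0, and ER-to-Golgi transport a median of 0.08 with 37 of 49, again with 0 calls. At an unadjusted p under 0.05 stood 5 N-glycosylation genes above 0, and 13 transport genes above and 1 below 0. Over all 11144 genes tested, 445 above and 356 below 0 had such a p. DESeq2 called 1 of the N-glycosylation genes and 2 of the transport genes higher. ERAD had a median of 0.06 and 0 calls of 32 by edgeR or DESeq2, with 7 genes above and 2 below 0 at an unadjusted p under 0.05. Within it HERPUD1, a stress-induced ERAD scaffold, had a log2 ratio of 0.18 ± 0.07 (adjusted p = 0.557) and SEL1L, the adaptor of the HRD1 ligase, one of 0.04 ± 0.09 (adjusted p = 0.974). Proteasome subunits had a median of 0.07 and cytosolic and mitochondrial heat shock proteins one of 0.0082, with 0 edgeR calls of 30 and of 25 and with 3 and 2 genes at an unadjusted p under 0.05. DESeq2 called 1 proteasome gene higher.

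Genes of the secretory granule split in direction. Of 27 tested, 3 rose (CHGB, SCG2 and PCSK2) and 2 fell (GCG and TTR), and 21 were above 0; DESeq2 called 5 higher and 2 lower. CHGB, a granin that packs hormone granules, ranged from 529 to 2376 CPM in high α-cells (median 1287) and from 548 to 1838 CPM in low α-cells (median 930.5). It rose by a log2 ratio of 0.34 ± 0.05 in 15 of 16 monkeys (adjusted p = 0.000141). SCG2, another granin, had medians of 1826 and 1444 CPM and a log2 ratio of 0.32 ± 0.04 in 15 of 16 monkeys (adjusted p = 2.74e-05). PCSK2, the convertase that releases glucagon from its precursor, had medians of 2243 and 1953 CPM and rose by a log2 ratio of 0.20 ± 0.03 in 16 of 16 monkeys (adjusted p = 0.000187). These 3 calls held in cells ranked within depth classes (adjusted p from 8.69e-05 to 0.00290) and in thinned cells (0.000212 to 0.0286). All 3 were lost with cells ranked by HSPA5 alone, where the log2 ratios were 0.21 for CHGB (adjusted p = 0.207), 0.16 for SCG2 (0.306) and 0.045 for PCSK2 (0.890). All 3 passed with cells ranked by HSP90B1 alone, at 0.30 for CHGB (adjusted p = 0.00465), 0.31 for SCG2 (3.13e-05) and 0.16 for PCSK2 (0.00465).

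GCG itself ranged from 51659 to 94370 CPM in high α-cells (median 70314) and from 64953 to 122201 CPM in low α-cells (median 84736). GCG fell by 0.26 ± 0.03 on the log2 scale, with 16 of 16 monkeys lower (adjusted p = 3.36e-06). TTR, transthyretin, which these α-cells carried at a like level, fell by 0.27 ± 0.02 in 15 of 16 monkeys (adjusted p = 2.57e-07). GCG and TTR together make up a large share of an α-cell's UMIs and so enter the CPM by which the cells were ranked. When the ranking used CPM over UMIs without GCG and TTR, the log2 ratios were -0.03 for GCG (adjusted p = 0.921) and -0.05 for TTR (adjusted p = 0.781), and neither passed. Within depth classes they were -0.05 (adjusted p = 0.0161) and -0.07 (adjusted p = 0.0214). The rises of CALR, CANX, SDF2L1, PDIA3, CHGB, SCG2 and PCSK2 passed with cells ranked by CPM without GCG and TTR. Their log2 ratios under the ranking without GCG and TTR were 0.37, 0.29, 0.61, 0.39, 0.32, 0.32 and 0.20. In all 17 of the 25 calls passed there. Besides GCG and TTR, those that did not were CFLAR (adjusted p = 0.0598), LMNA (0.0521), ENSMFAG00000036411 (0.264), FBXO21 (0.152), ND2 (0.154) and EEF1A1 (0.173). Within depth classes 18 of the 25 passed and in thinned cells 10.

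**Figure D3:**
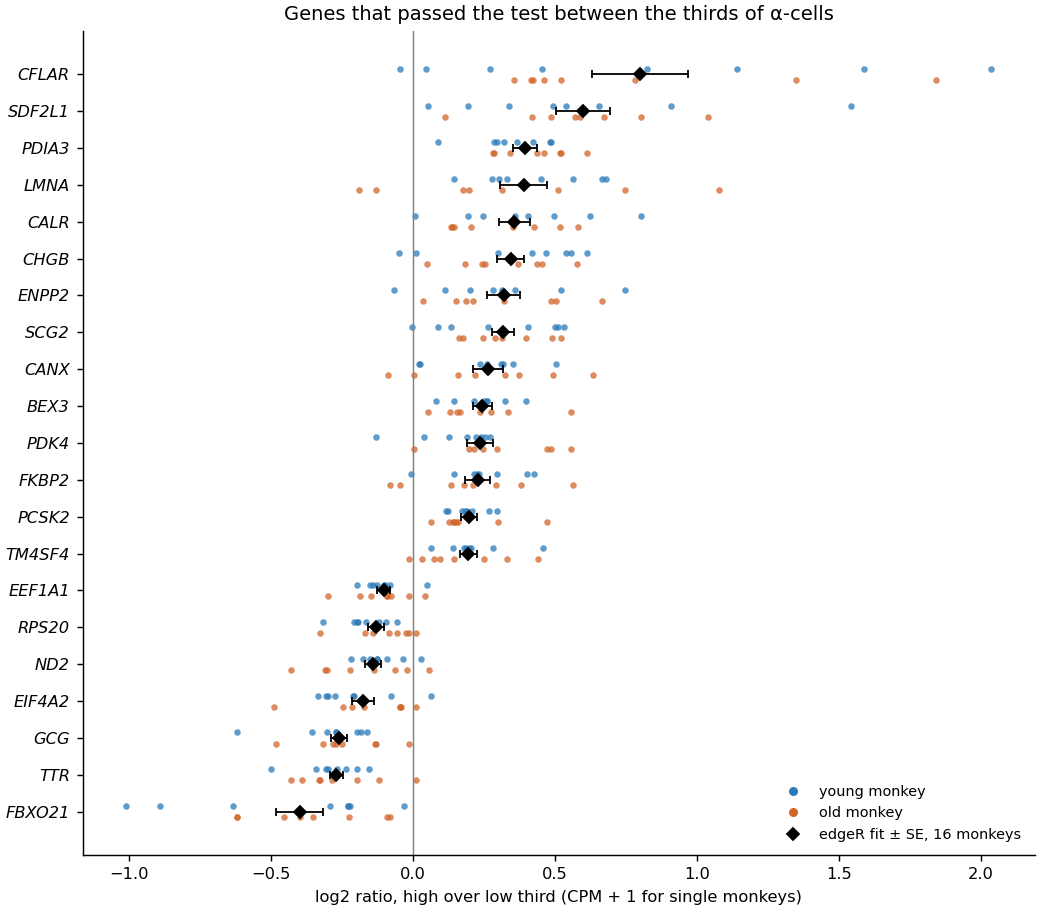
Log2 ratio of high to low α-cells for 21 genes that passed the test: points are single monkeys (young in blue, old in orange; computed on CPM + 1), and diamonds with bars are the edgeR fit ± SE over 16 monkeys. PDIA3, CALR and SDF2L1 were above 0 in 16 of 16 monkeys and GCG was below 0 in 16 of 16.

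Outside these lists the rises were of mixed function. CFLAR, which blocks caspase-8, had the largest log2 ratio of the calls, 0.80 ± 0.17, at medians of 28.9 and 20.3 CPM and in 15 of 16 monkeys (adjusted p = 0.0371). That call was lost in 8 of 16 fits that left out 1 monkey (without YF1, YF3, YM1, YM2, YM3, OF3, OM1 or OM2; adjusted p up to 0.110) and within depth classes (0.230). LMNA, which encodes the nuclear lamins A and C, had medians of 120 and 97.6 CPM and a log2 ratio of 0.39 ± 0.08 in 14 of 16 monkeys (adjusted p = 0.0372), and it kept its call in 2 of 16 such fits. LMNA passed within depth classes (0.38, adjusted p = 0.0253), but in thinned cells its log2 ratio was 0.094 (0.926). ENPP2, the secreted enzyme autotaxin, rose by a log2 ratio of 0.32 ± 0.06 (adjusted p = 0.00762) and PDK4, a kinase that restrains pyruvate dehydrogenase, by 0.24 ± 0.05 (adjusted p = 0.0147; 0.0528 without OM1). Within depth classes ENPP2 passed (adjusted p = 0.0397) and PDK4 did not (0.20, 0.0757). BEX3 rose by 0.24 ± 0.03 in 16 of 16 monkeys (adjusted p = 0.000187), although its median in the middle part, 1006 CPM, lay below that of low α-cells, 1064 CPM. TM4SF4, a tetraspan membrane protein, was the 1 call among 22 tested genes of the α-cell identity list, at medians of 3505 and 3119 CPM and a log2 ratio of 0.20 ± 0.03 (adjusted p = 0.000901). That list had a median of -0.02 and 9 of 22 members above 0. Within depth classes BEX3 (adjusted p = 0.00112) and TM4SF4 (0.00588) passed. A gene known only as ENSMFAG00000036411 also rose, a call lost within depth classes (0.294); ENSMFAG00000036388 and ENSMFAG00000029991 fell. The files do not pair these identifiers with names.

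Genes other than GCG and TTR also fell. FBXO21, a ubiquitin ligase subunit, had medians of 68.6 CPM in high and 89.3 CPM in low α-cells and fell by 0.40 ± 0.08 on the log2 scale in 16 of 16 monkeys (adjusted p = 0.0352). EIF4A2 and EEF1A1, factors of translation initiation and elongation, fell by 0.18 ± 0.04 (adjusted p = 0.0468) and 0.10 ± 0.02 (adjusted p = 0.0455). ND2, a mitochondrially encoded subunit of complex I, fell by 0.14 ± 0.03 (adjusted p = 0.0276), a call lost without YF3, OF3 or OM2 (adjusted p up to 0.0710). FBXO21, EIF4A2 and EEF1A1 kept their calls in 7, 5 and 4 of 16 fits that left out 1 monkey. Within depth classes EIF4A2 passed (adjusted p = 0.0330), and FBXO21 (-0.28, 0.317), ND2 (-0.091, 0.337) and EEF1A1 (-0.073, 0.200) did not.

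Cytosolic ribosomal proteins had small log2 ratios of 1 sign. All 51 tested members had log2 ratios below 0, from -0.16 to -0.0038 with a median of -0.08; the median was -0.04 with library totals and 0.02 on the mean log2 scale, where the medians of all genes were 0.048 and 0.043. RPS20 was the 1 member called by edgeR, at medians of 1480 and 1567 CPM and a log2 ratio of -0.13 ± 0.03 (adjusted p = 0.0469), a call it kept in 4 of 16 fits that left out 1 monkey and within depth classes (0.0164). DESeq2 called 9 members lower, and 15 of the 51 were lower in at least 14 of 16 monkeys. Nuclear-coded respiratory chain and ATP synthase genes had a median of 0.04 with 39 of 45 above 0 and 0 calls by edgeR or DESeq2; 7 above and 1 below 0 had an unadjusted p under 0.05.

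Lists unrelated to the secretory path had 0 calls by edgeR or DESeq2, and in each at most 2 genes had an unadjusted p under 0.05. Medians were -0.0048 for 27 genes of cholesterol and fatty acid synthesis, -0.04 for 19 immediate-early genes, -0.05 for 9 NF-kB inflammatory genes, 0.03 for 20 interferon and antigen presentation genes, 0.10 for 9 Bcl-2 family genes and 0.02 for 9 cell cycle genes. For the Bcl-2 family the median over members was above 0 in only 5 of 16 monkeys and stood at -0.13 in the median monkey. Its 2 genes at an unadjusted edgeR p under 0.05 were below 0.

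**Figure D4:**
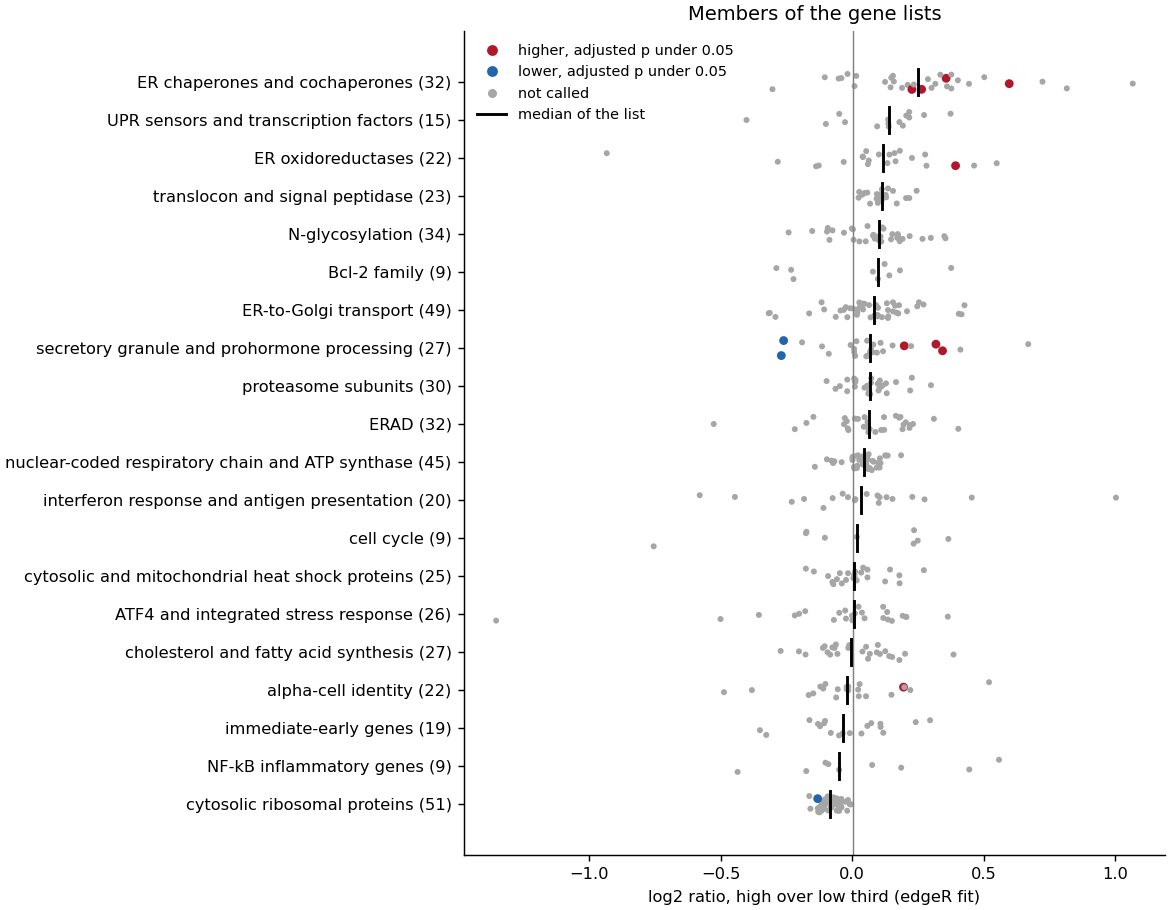
Log2 ratio of high to low α-cells (edgeR fit, 16 monkeys) for the tested members of 20 gene lists, with the number tested in brackets; the black bar is the median of the list and the grey line the median of all genes tested. ER chaperones had the highest median, 0.25, with 4 of 32 members called, and cytosolic ribosomal proteins the lowest, -0.08, with 1 of 51.

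Of the α-cell markers that did not choose the cells, IRX2 averaged 465 and 489.7 CPM and GC 460.2 and 452 CPM in high and low α-cells. Markers of other cell types were looked at in the same sums. The 8 β-cell markers summed to 1847 to 13665 CPM in high and 1664 to 13847 CPM in low α-cells and differed by -939 CPM (SD of the differences 1160), lower in high α-cells in 14 of 16 monkeys (exact sign-flip adjusted p = 0.00247). That sum was carried by INS, which averaged 5870.0 and 6781 CPM and which the choice of α-cells also used, so it is no measure of β-cell markers in general. IAPP averaged 37.5 and 37.6 CPM and RXRG 15.4 and 15.1 CPM, and G6PC2 and ADCYAP1 were below 1 CPM in both. INS had a log2 ratio of -0.27 ± 0.07 (adjusted p = 0.158). Once each monkey's deepest cells, those past the 95th percentile of UMIs, were dropped, the β-cell sum differed by -577 CPM (exact sign-flip adjusted p = 0.239). Acinar markers reached 745 CPM in the high and 5292 CPM in the low α-cells of the highest monkey, with medians of 13.5 and 10.6 CPM. Ductal, stellate, endothelial and immune lists had medians between 3.56 and 52.9 CPM. For delta, PP, acinar, ductal, stellate, endothelial and immune markers the adjusted p of the difference lay between 0.316 and 0.864. Their part in the results was not tested. A UMI of UBD, CCL2 or VCAM1, genes of inflammation, was found in 53 high and 36 low α-cells, and without those cells 15 genes rose and 5 fell.

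The split of the genes did not change detectably with age or sex. For the change with age, 0 of 11144 genes passed with edgeR (430 at an unadjusted p under 0.05, or 3.86%) and 0 with DESeq2. For the change with sex, 0 passed with edgeR (396 at an unadjusted p under 0.05) and 1 with DESeq2, ENSMFAG00000038324. PDIA3 had a log2 ratio of 0.35 in young and 0.43 in old monkeys and 0.40 in females and 0.37 in males (unadjusted p of the difference 0.330 for age and 0.704 for sex). CALR had 0.40 in young and 0.31 in old monkeys (unadjusted p of the difference 0.429), and CHGB 0.36 and 0.32 (0.663). Other named genes were less alike, though none passed after adjustment over the 11144 genes tested. With no filter on low counts, the change of INS with age did pass. MANF had 0.81 in young and 0.18 in old monkeys (unadjusted edgeR p of the difference 0.0278), and 0.15 in females and 0.83 in males (0.0184). By age, SEL1L had 0.24 in young and -0.15 in old monkeys (0.0297), and INS -0.11 and -0.43 (0.0288).

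The level of the ranking genes over all α-cells of a monkey was not used by the ranking and could be compared between groups. The mean of the summed CPM was 1393 ± 442.5 (SD, n = 8) in old and 1240 ± 338.5 (SD, n = 8) in young monkeys (exact permutation adjusted p = 0.881). The lowest monkey was OF3 at 649.8 CPM, followed by YM1 at 752 CPM, and the highest were OM2 at 1995, OF2 at 1959 and YF3 at 1932 CPM. Between females (1319 ± 445.8, n = 8) and males (1314 ± 353.5, n = 8) the difference was 4.73 CPM (exact permutation adjusted p = 0.982). Among males alone, old monkeys stood at 1349 to 1995 CPM and young ones at 752 to 1331 CPM without overlap (exact permutation p = 0.0286, unadjusted and the smallest that 4 against 4 allow). Among females the old stood at 649.8 to 1959 CPM and the young at 1098 to 1932 CPM (exact permutation p = 0.657), and a test of the difference between the sexes gave an exact permutation p of 0.124.

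The same ranking was run on β-cells, of which 1086 were found by dominant insulin. In 15 monkeys with at least 15 β-cells, 354 high and 354 low β-cells were compared, 5 to 63 in each part of a monkey. In high β-cells 9 genes rose, 0.0792% of 11357 tested, and 0 fell: CALR, CHGB, CRELD2, MANF, PDIA3, PDIA4, SDF2L1, SEL1L and SERP1. CALR, CHGB, PDIA3 and SDF2L1, 4 of these 9, were also among the 25 genes of α-cells. SDF2L1 had a log2 ratio of 1.42 ± 0.18 in β-cells beside 0.60 ± 0.10 in α-cells, MANF 1.27 ± 0.18 beside 0.50 ± 0.15, and CRELD2 2.98 ± 0.36 beside 0.82 ± 0.35. SEL1L had 0.70 ± 0.14 beside 0.04 ± 0.09. PCSK2 had -0.05 ± 0.08 in β-cells beside 0.20 ± 0.03 in α-cells. In the test of the difference between the cell types, 0 of 11357 genes passed with edgeR (425 at an unadjusted p under 0.05), the lowest adjusted p being 0.349 for CRELD2. DESeq2 called 6 genes, CDC14A, CRELD2, EIF2AK3, ELP3, MAST3 and NBEAL2. The counts of calls in the cell types cannot be set against each other, since the β-cells were fewer.

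**Figure D5:**
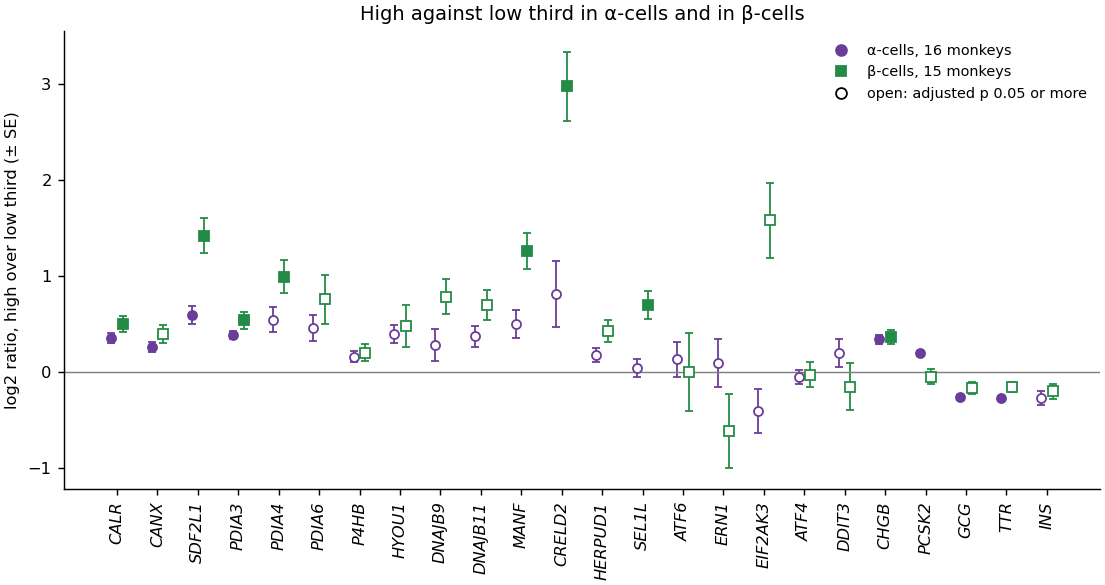
Log2 ratio of high to low cells ± SE (edgeR) for ER, UPR and granule genes in α-cells (circles, 16 monkeys) and β-cells (squares, 15 monkeys), filled where the adjusted p is under 0.05. SDF2L1, MANF and CRELD2 lie at 1.42, 1.27 and 2.98 in β-cells and at 0.60, 0.50 and 0.82 in α-cells.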

How the data were processed

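UMI counts per gene and cell from 64 libraries of islet cells of 16 monkeys were used. Per the labels and the study's methods, the authors made these deposited counts by assigning barcodes, aligning reads to Macaca_fascicularis_5.0 with TopHat2 2.0.12 and counting UMIs with HTSeq; CASAVA 1.8 also stands in the submitters' processing notes. The labels name a modified SMART-seq2 protocol and the methods a modified STRT-seq protocol. Age group and sex of each monkey came from the submitters' design text, which pairs the labelled individual with its name. Spike-in rows were left out of CPM. Cells shared neither names nor identical counts between libraries. The α-cells had a median of 64894 UMIs of macaque genes (2223 to 439214; the minimum of 10000 counted spike-ins too). No doublet caller was run; cells above the 95th percentile of UMIs were left out as an alternative.

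The members and gene lists were chosen with earlier results of these data known. HSPA5 and HSP90B1 were removed, counts were summed per monkey and part (3364296 to 10010228 UMIs) and tested with edgeR 4.0.16 (glmQLFit, glmQLFTest, TMM, filterByExpr, monkey as a block, Benjamini-Hochberg over all genes tested; R 4.3.3). The pairing comes from the monkey: both sums of a pair are cells of 1 animal. CPM of single genes are TMM-scaled; SE were taken from the fitted log2 ratio and its F statistic. DESeq2 1.42.0 and limma 3.58.1 served as alternatives. Values per cell and marker sums were tested by exact sign-flips over 16 monkeys and levels by exact permutation, two-sided. Named were the 12 largest rises and falls past the threshold with a mean of at least 20 CPM and 1 direction in at least 14 of 16 monkeys (12 rises and 8 falls met this), 24 genes listed by hand (XBP1 not analysed here), up to 3 rises and 3 falls of each list and up to 5 genes of each difference between groups. FKBP2 and the genes with identifiers only were named after their values were seen, as calls outside this rule, and so were the genes called for differences by DESeq2. The edgeR fit was run on simulated counts of 11144 genes with known changes. It recovered 28% of 100 genes with a log2 change of 0.5 and 71% of 100 genes with one of 1, with 3 false calls. Smaller changes were not simulated, so a gene without a call may still differ. Results for some genes are not reported here. Promoter and protein sequences were not used here. Genes whose reads a near-identical copy could share, among them ribosomal proteins, are uncertain.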

Additional observations from a re-analysis of the deposited data

Results flagged for a closer look

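In YM3, a young male, high α-cells had 1.68 times the UMIs and 1.32 times the genes of its low α-cells, and GCG had a log2 ratio of -0.62; these 3 values stood apart from those of the other 7 young monkeys by Dixon's test. In OF2, an old female, the log2 ratio of INS between high and low α-cells was -1.50, apart from the other 7 old monkeys. The test was run on 90 groups of 8 monkeys, of which chance alone singles out about 1 in 20, and it singled out 4. Without YM3, 15 genes rose and 6 fell, and 18 of these 21 were among the 25 genes of all 16 monkeys. Without OF2, 19 genes rose and 9 fell.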

How the results depend on the processing

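The count of genes that rose (15 with all cells) was 49 with DESeq2, 67 with library totals, 29 with at least 20 CPM on average, 860 on the mean log2(CPM/10 + 1) scale with limma, 5 ranked by HSPA5 alone, 2 for the 10% of cells at each end, 0 for purer α-cells, 26 ranked within library and depth classes (chosen after seeing the data), and 6, 2, 1 and 2 in young, old, female and male monkeys alone. The count that fell (10) was 28, 4, 19, 6, 4, 3, 2 and 5 under those settings and 3, 2, 2 and 2 in the same groups. It was 18 within depth classes, 5 within each library, 2 ranked by HSP90B1 alone and 5 without cells with a UMI of UBD, CCL2 or VCAM1 (chosen after seeing the data). Without the replicate block, 0 genes rose and 0 fell (298 at an unadjusted p under 0.05), with 25 of 25 genes in the same direction. Leaving out 1 monkey gave 10 to 25 rises and 4 to 11 falls; 14 of the 25 calls passed in all 16 such fits. The rises were 25 without OF1, and the falls 5 without YF1, 4 without YF3, 6 without YF4, 6 without YM3, 5 without YM4 and 5 without OF3. The cause of these shifts was not tested; fewer monkeys or cells entered the smaller settings. On the log scale 99.3% of calls were rises, against 60% by edgeR with TMM, 94.4% with library totals, 83.9% within library and depth classes, 79.2% within each library and 75% without cells with a UMI of UBD, CCL2 or VCAM1. With no filter on low counts, 4 genes changed with age, INS among them, and 4 differed between cell types, GCG and TTR among them. With DESeq2, 1 changed with sex and 6 differed between cell types. Without YM3 the 3 counts were 0.

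UMIs per cell differed by 1352 within depth classes (p = 0.128 by exact sign-flip). The spike-in share differed by -0.929 percentage points by means. The level of the ranking genes differed by -149.9 CPM between old and young females and by 456 CPM between old and young males. Between the sexes it differed by -10.0 CPM by medians, -0.015 on the log2 scale and -298 CPM in old monkeys. Without cells above the 95th percentile of UMIs the marker sums differed by -577 CPM (β-cell), 18.4 (PP), 10.2 (acinar) and 0.837 (ductal). Of the named genes that changed sign, none passed the test in either setting but ENSMFAG00000029991 (0.020 on the mean log2 scale). They were ATF6 (-0.084 in young monkeys), ERN1 (-0.30 by HSPA5, -0.0085 in young monkeys, -0.033 in males, -0.069 within library and depth classes), EIF2AK3 (0.0067 on the mean log2 scale, 0.31 by HSPA5, 0.045 in purer cells, 0.012 in young monkeys), ATF4 (0.062 on the mean log2 scale, 0.055 by HSPA5, 0.0092 over 20000 UMIs, 0.0035 in old monkeys), DDIT3 (-0.025 in old monkeys), HERPUD1 (-0.019 by HSP90B1) and SEL1L (-0.0078 for the outermost cells, -0.15 in old monkeys, -0.072 in females, -0.0045 without cells with a UMI of UBD, CCL2 or VCAM1). Leaving out 1 monkey moved ERN1 between -0.026 and 0.20 and SEL1L between -0.0084 and 0.084. Over the named genes and alternatives, 1292 values kept direction and side of the threshold, 362 lost the call, 37 gained it and 23 changed sign. Only the 25 genes called with all cells could lose a call, and the 1292 include genes that were uncalled in both settings. The 362 are therefore a larger part of the values that could lose a call than of all values.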

Other observations

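Mitochondrially encoded genes were looked at as a group after ND2 was called. All 13 had log2 ratios below 0 in high against low α-cells, with a median of -0.09 and 1 call, ND2; with library totals the median was -0.05 and 11 of 13 were below 0. Their share of UMIs was higher in high α-cells in 7 monkeys and lower in 9.

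Libraries differed in their share of high α-cells. The share had a median of 34.2% over 64 libraries and ran from 5% to 47.8%. The lowest were OF2 library I1, with 2 high α-cells of 40, and OM3 library I1, with 6 of 52. With cells ranked inside each library, 19 genes rose and 5 fell, and 19 of those 24 were among the 25 genes found by ranking over the whole monkey. CALR, CANX, SDF2L1, FKBP2, PDIA3, CHGB, SCG2 and PCSK2 passed there too, with adjusted p from 3.58e-05 to 0.0291.

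Some genes outside the lists passed with DESeq2 alone. SFRP1, a secreted Wnt antagonist, had an edgeR log2 ratio of 0.58 (adjusted p = 0.0742; DESeq2 0.00920). ADGRG2, an adhesion G-protein-coupled receptor, had one of 0.62 (adjusted p = 0.0834; DESeq2 0.00946). MALAT1, a nuclear long noncoding RNA, had one of 0.20 (adjusted p = 0.0850; DESeq2 0.0212). These 3 genes were chosen after their values were seen.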
